A study of Mus musculus with 8 samples.

Results

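DI_Pdyn_Gal neurons are a subtype of dorsal inhibitory neurons of the mouse spinal cord, named for the peptide precursor genes Pdyn and Gal. The members were the nuclei to which the deposited annotation gives this name, 293 of 12447 nuclei and of 4076 neurons, which made it the fifth most numerous of 28 neuron subtypes. All mice were wild-type C57BL/6, and all nuclei came from the low thoracic cord. In experiment 1 the nuclei of 2 uninjured replicates were sorted by GFP, a tracer of neurons that project to the lumbar cord, into a positive fraction (traced, 2 libraries) and a negative one (untraced, 2 libraries). Experiment 2 compared an uninjured control (uninjured, 1 library) with nuclei taken after a hemisection (hemisection, 2 libraries), and experiment 3 sequenced GFP-positive regenerating neurons (regenerating, 1 library). Neither the age of the mice, nor the time after injury, nor any pooling of animals in a library is stated in the labels. Where nothing says that libraries came from separate animals, p-values measure only the spread between these libraries.

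Dynorphins, cut from the precursor that Pdyn encodes, act mainly on the kappa opioid receptor, and galanin acts on its own family of inhibitory and excitatory receptors. In the dorsal horn, inhibitory neurons that make these peptides release GABA, and many of them also release glycine. They are known for limiting itch and mechanical pain signals before these leave the cord. Gad1 and Gad2 encode the enzymes that make GABA, and Slc32a1 encodes the transporter that loads GABA and glycine into vesicles.

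The nuclei were unevenly spread over the libraries. Traced replicates 1 and 2 held 1 nucleus each, untraced replicates 26 and 14, the uninjured library 158, hemisection replicates 69 and 9, and the regenerating library 15. The median depth was 7117 to 13893 UMIs (distinct captured transcript molecules) per nucleus in the 5 untraced, uninjured and hemisection libraries, and 650 in the regenerating library. Levels are given as CPM, the UMIs of a gene scaled to a fixed total of UMIs (counts per 1e6) summed over the nuclei of the subtype in a library. Of the barcode sequences, 4 were shared by a pair of libraries, and 0 of these belonged to a nucleus of the subtype. The names of 4489 of 6637 nuclei in the uninjured library hold no barcode sequence, but 0 of these are of the subtype. In the regenerating library all 238 names lack one, those of the 15 nuclei of the subtype included. Nuclei without a barcode sequence could not be compared.

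The markers fitted the label. Pdyn (GRCm38 chromosome 2, 129686565 to 129699844, minus strand) had a UMI in 93 of 293 nuclei, or 31.7%, against 1.00% of 501 other dorsal inhibitory nuclei at a like median depth (8562 and 8551 UMIs). The share was 0.467% in 5780 oligodendrocytes, which should lack the gene and had a median of 3072 UMIs. Gal (chromosome 19, 3409915 to 3414544, minus strand) had a UMI in 117 nuclei, or 39.9%, against 3.59% of other dorsal inhibitory nuclei and 1.25% of oligodendrocytes. Gad1 (chromosome 2, 70553072 to 70602014, plus strand) had a UMI in 194 nuclei, or 66.2%, against 4.00% of oligodendrocytes. At least 1 of Gad1, Gad2 and Slc32a1 was found in 266 of the 293 nuclei. Because the nuclei were grouped and named by genes such as these, all levels of the subtype against other neurons are descriptions and carry no test.

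The peptides were not found in every nucleus. Both Pdyn and Gal had a UMI in 72 nuclei, Pdyn alone in 21, Gal alone in 45 and neither in 155. In the uninjured library 55 of 158 nuclei had both and 73 had neither. In untraced replicate 1, 6 of 26 had both and 10 had neither, and in untraced replicate 2, 1 of 14 had both and 10 had neither. In hemisection replicate 1, 6 of 69 had both and 44 had neither, and in hemisection replicate 2, 2 of 9 had both and 5 had neither. The share of nuclei with at least 1 of them was 61.5% and 28.6% in the untraced libraries, 53.8% in the uninjured library and 36.2% and 44.4% after hemisection, so that the groups overlapped. A nucleus without a UMI can still express the gene. Nuclei with neither had a median depth of 9397 UMIs over all libraries, and those with at least 1 had 8348. In the untraced libraries the medians were 9647 and 7117 for neither, against 10018 and 8645.5 for at least 1. They were 10204 against 8282 in the uninjured library, and 8447.5 and 20869 against 8100 and 9265 in the hemisection libraries. Why a nucleus lacked a UMI was not tested.

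Pdyn stood at 69.0 and 40.0 CPM in the untraced libraries, 148 in the uninjured library, and 23.7 and 73.8 in the hemisection libraries. In all other neurons of these 5 libraries it lay between 0 and 2.03 CPM. Gal stood at 211 and 50.0 CPM in the untraced libraries, 555 in the uninjured library, and 149 and 36.9 in the hemisection libraries, against 0 to 12.9 in other neurons. Gad1 varied less, at 233, 150.0, 177, 253 and 177 CPM in the same order.

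**Figure D1:**
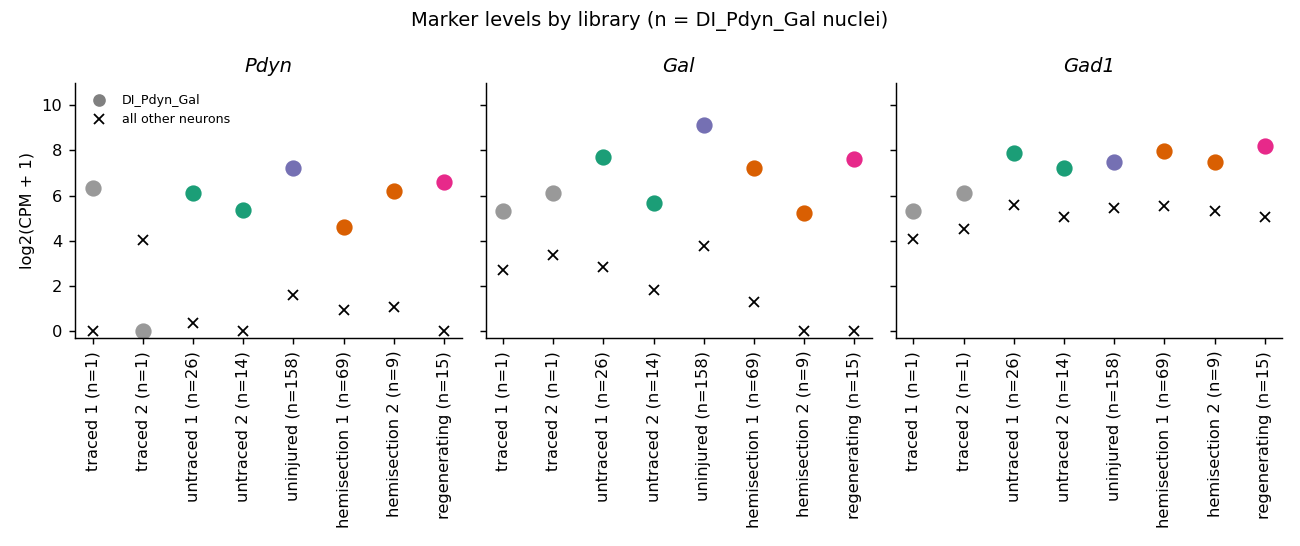
Level of Pdyn, Gal and Gad1 as log2(CPM + 1) in the 8 libraries, for DI_Pdyn_Gal nuclei (circles, coloured by group) and all other neurons (crosses); n is the number of DI_Pdyn_Gal nuclei. The circles lie above the crosses in all libraries but for Pdyn in traced replicate 2, which holds 1 nucleus of the subtype.

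The subtype held 73.6% of all Pdyn UMIs of the series and 70.7% of all Gal UMIs. In the uninjured library, which held the most nuclei, it ranked first by CPM for both genes among 33 subtypes and classes. For Gal the next were the dorsal excitatory subtypes DE_Tac1 with 208 CPM and DE_Cck_Cpne4 with 91.1 CPM, where Pdyn was at 0 UMIs. By the share of nuclei with a Gal UMI over all libraries, DE_Tac1 stood above the subtype, at 47.5% of 40 nuclei against 39.9% of 293. Gal was thus also found in excitatory subtypes in which Pdyn was not.

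**Figure D2:**
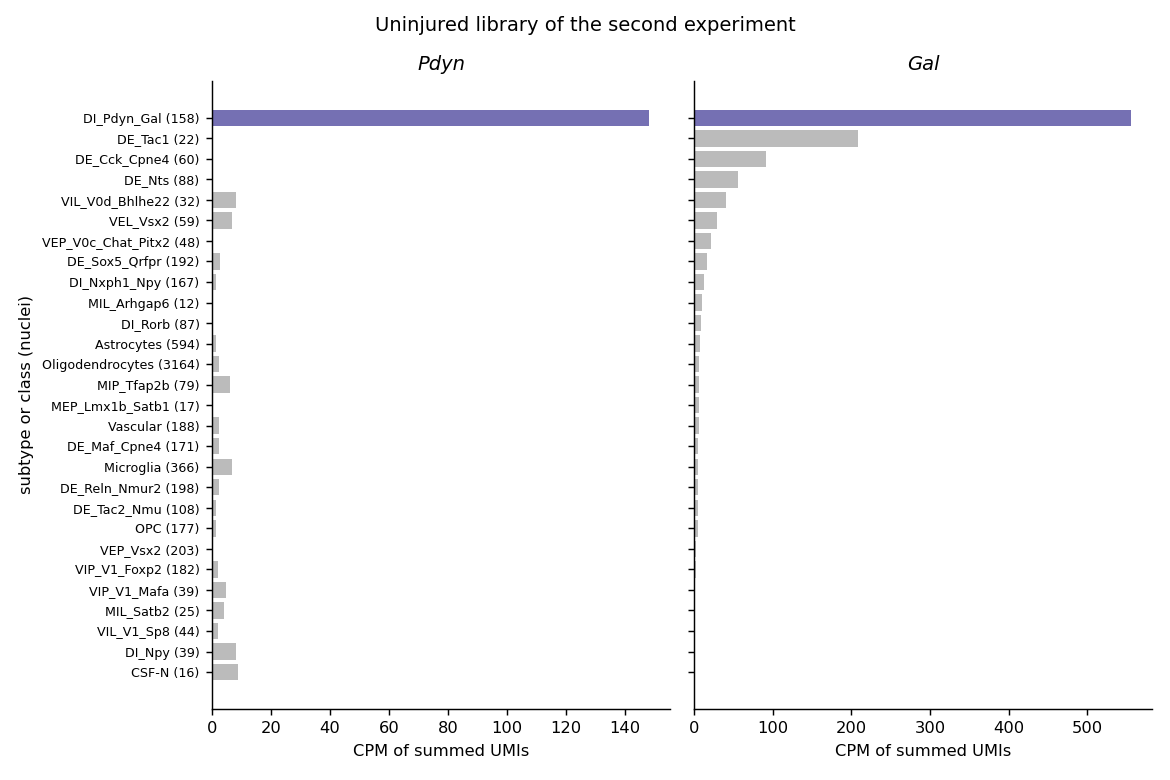
Level of Pdyn and Gal in CPM of the summed UMIs of each subtype or class in the uninjured library, for the subtypes shown, with the number of nuclei in brackets; subtypes at 0 for both genes are left out. DI_Pdyn_Gal has the longest bar for both genes (148 and 555 CPM), and DE_Tac1 is next for Gal (208 CPM).

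The genes that stood highest against all other neurons were ranked by the median, over the 6 libraries with at least 5 nuclei of the subtype, of the log2 ratio of CPM + 1. Among genes with a UMI in at least 20% of the nuclei of either set, 68 of 6351 (1.07%) were over 2-fold higher in each of the 5 deeper libraries and 83 (1.31%) over 2-fold lower. Of the 25 named higher genes, 22 were over 2-fold higher in each of these libraries. The exceptions were Sema3e, a guidance ligand, at a lowest log2 ratio of 0.97, and the matrix genes Abi3bp and Col6a1, whose ratios in hemisection replicate 2 were -1.09 and -1.68.

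Among signalling genes, Gucy2d, a membrane guanylyl cyclase, led the list. It stood at 69.0 and 60.0 CPM in the untraced libraries, 95.6 in the uninjured library and 74.3 and 51.7 in the hemisection libraries, and at no more than 1.25 CPM in other neurons. A further peptide precursor gene of the opioid family was high as well. Pnoc, which encodes the nociceptin precursor, stood at 200 and 60.0 CPM in the untraced libraries, 250 in the uninjured library and 77.7 and 125 in the hemisection libraries, against 6.59 to 22.3 in other neurons. Cartpt, the precursor of another neuropeptide, stood at 30.0 to 110 CPM. Of the 8 listed opioid genes, Pdyn and Pnoc were over 2-fold higher in all 5 libraries and 0 were over 2-fold lower. Penk, the enkephalin precursor gene, lay near the other neurons, with log2 ratios of -0.89 to 0.49. Oprm1, the mu opioid receptor gene, stood at 111 to 172 CPM and had a UMI in 52.2% of the nuclei, while Oprk1, the kappa receptor for dynorphin, had one in 13.3%. The galanin receptor genes were at or near 0: Galr1 had a UMI in 0.683% of nuclei, and Galr2 and Galr3 had 0 UMIs.

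The inhibitory transmitter genes were those of GABA rather than of glutamate. Of 8 listed GABA and glycine genes, 4 were over 2-fold higher than in other neurons in all 5 libraries, among them Gad1, Gad2 and the GABA transporter gene Slc6a11. Slc6a5, the glycine transporter gene that marks glycinergic neurons, had a UMI in 53.9% of nuclei, and its log2 ratio ran from -0.40 to 1.5. Slc17a6, which encodes the glutamate transporter of excitatory dorsal neurons, stood at 0 to 16.2 CPM against 78.1 to 156 in other neurons. Lmx1b, a factor of dorsal excitatory neurons, stood at 0 to 8.44 CPM against 61.5 to 116. Of the 8 listed genes of glutamatergic identity, 3 were over 2-fold lower in all 5 libraries and 0 over 2-fold higher. Other members were high, with Ebf1 at 2620 and Ebf3 at 571 CPM in the uninjured library. The list summed to 4661, 2310, 3516, 3446 and 2745 CPM in the untraced, uninjured and hemisection libraries. In other neurons the sums were 3875, 4472, 3385, 3772 and 4962 CPM.

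Among transcription factors, Pax2 and Pax8, which mark inhibitory neurons of the dorsal horn, stood at 283 to 520 and 150.0 to 284 CPM. Nfib, a factor of late-born neurons, was even across libraries, at 559, 600.0, 619, 608 and 598 CPM in the 5 libraries, against 67.4 to 123 in other neurons. Prox1 and Zeb2 were also among the named higher genes. Of 16 listed factors of dorsal inhibitory neurons, 4 were over 2-fold higher in all 5 libraries (Pax2, Pax8, Nfib and Sall3) and 2 were over 2-fold lower (Lhx1 and Satb1). Ptf1a and Prdm13, which act in the embryo, had 0 UMIs in the subtype.

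Among receptors and channels, the kainate receptor gene Grik1 stood at 983 to 1511 CPM against 279 to 418 in other neurons, and the AMPA receptor gene Gria1 at 1348 to 1616 against 474 to 713. The calcium channel subunit genes Cacna2d1 and Cacna2d3 differed in opposite directions. Cacna2d1, which encodes a target of gabapentin, led the lower genes: it stood at 0 CPM in both untraced libraries and hemisection replicate 2, 58.6 in the uninjured library and 23.7 in hemisection replicate 1, against 955 to 1306 in other neurons. Cacna2d3 stood at 1802 to 3881 CPM against 440 to 668. Other named lower genes were Zfhx3, Reln, Calb1, Nrn1 and Gfra1, and 14 of the 15 named lower genes were over 2-fold lower in each of the 5 libraries. The exception was Kcnk9, with a highest log2 ratio of -0.85.

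**Figure D3:**
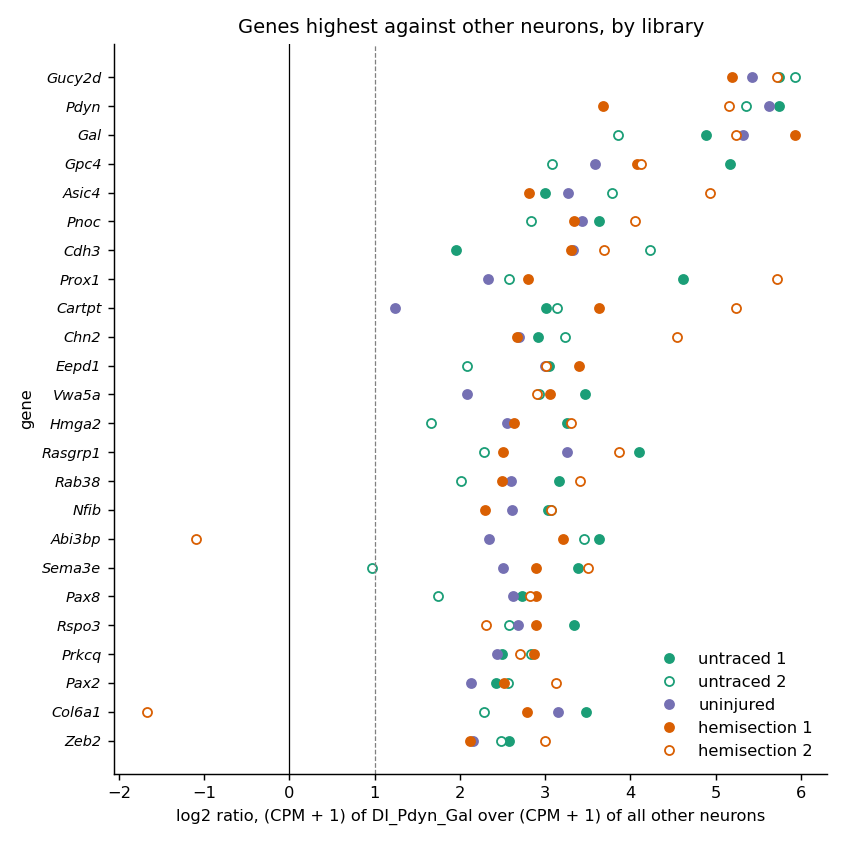
Log2 ratio of CPM + 1 in DI_Pdyn_Gal over that in all other neurons for named higher genes, in the 5 deeper libraries (coloured by group, open circles for replicate 2); the dashed line marks 2-fold. Gucy2d, Pdyn and Gal lie farthest right, and Abi3bp and Col6a1 each have 1 point left of 0, from hemisection replicate 2.

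Against the 501 nuclei of the other dorsal inhibitory subtypes (DI_Npy, DI_Nxph1_Npy and DI_Rorb), the GABA genes no longer stood apart, since 0 of the 8 were over 2-fold higher or lower in all 5 libraries. Over all genes, 57 of 6350 were over 2-fold higher (0.898%) and 57 over 2-fold lower (0.898%). Nfib led the higher genes here, at 0 to 23.3 CPM in the other dorsal inhibitory nuclei. Hmga2, a chromatin protein gene best known from embryonic and stem cells, stood at 200, 110.0, 118, 172 and 280 CPM in the subtype against 0 to 3.49. Ebf2, a transcription factor gene that is also on the list of glutamatergic identity, stood at 280 to 529 CPM against 2.08 to 18.5. Nos1, the neuronal nitric oxide synthase gene, stood at 36.9 to 110.0 CPM against 0 to 4.65, and Rspo3, a Wnt-signal enhancer, at 80.0 to 222 against 0 to 18.2. All 12 named higher genes of this comparison were over 2-fold higher in each library. Among lower genes, Npy, the neuropeptide Y gene that names the neighbouring subtypes, stood at 1.69 to 36.4 CPM against 72.0 to 443. Lhx1 stood at 0 to 7.38 CPM against 48.0 to 121, and Chrm3, a muscarinic receptor gene, at 156 to 417 against 1393 to 2184.

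The subtype whose summed profile was most like it, by Pearson's r of log2(CPM + 1) across genes of the same library, was DI_Nxph1_Npy in 3 of the 5 libraries. In the uninjured library r was 0.918 across 7349 genes, with MIP_Tfap2b next at 0.907. In hemisection replicate 1 the order was reversed, at 0.870 and 0.871. In untraced replicate 2, where few subtypes had enough nuclei, DE_Maf_Cpne4 came first with 0.702. Genes of 1 library are not independent replicates, and r moved with the number of nuclei behind each profile.

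The share of neurons was 7.34% and 11.4% in the untraced libraries, 7.36% in the uninjured library, and 6.90% and 8.33% in the hemisection libraries. The regenerating library had 6.30%. Exact 95% intervals, which cover counting error only, ran from 3.88% to 15.2% for hemisection replicate 2 and from 6.29% to 8.54% for the uninjured library. Numbers of nuclei were compared by edgeR's quasi-likelihood test, with Benjamini-Hochberg adjustment over 28 subtypes. In it the hemisection libraries did not differ beyond their spread from the uninjured library (log2 difference -0.04 ± 0.29 SE, adjusted p = 0.940), where 1 subtype of 28 was called (3.57%). Against the untraced libraries the difference was -0.27 ± 0.32 (adjusted p = 0.850).

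Traced replicates 1 and 2 held 1 nucleus of the subtype among 80 and 1 among 25 neurons, shares of 1.25% and 4.00% that both lay below those of the untraced libraries. The log2 difference was -2.16 ± 0.74 with an adjusted p of 0.111 by the same edgeR test, in which 0 of 28 subtypes (0.0%) were called. The traced libraries held only 3 and 1 dorsal inhibitory nuclei in all, and when the dorsal inhibitory nuclei were the total, the difference was 0.37. The regenerating library held more of the subtype than the traced libraries by 1.71 ± 0.83 on the log2 scale (adjusted p = 0.357, 0.0% of subtypes called). Its nuclei had a median of 650 UMIs, and whether this depth touched their naming was not tested.

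**Figure D4:**
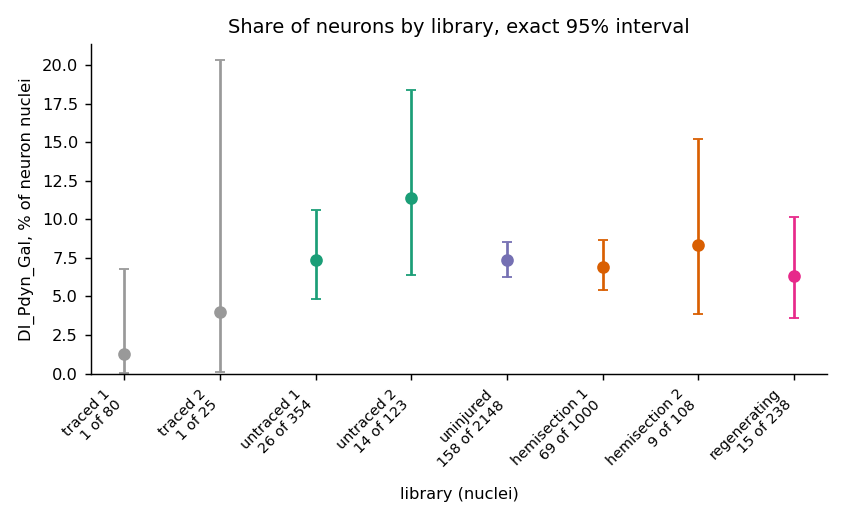
Share of DI_Pdyn_Gal among neuron nuclei in percent for each library, coloured by group, with exact 95% binomial intervals and the numbers of nuclei under each library. The 6 libraries with over 100 neurons lie between 6.30% and 11.4% with overlapping intervals, and the 2 traced libraries lie below them on 1 nucleus each.

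Genes within the subtype were compared on summed UMIs of the 6 libraries with at least 5 nuclei, in 1 edgeR quasi-likelihood fit over 6074 genes. Against the uninjured library, 63 genes (1.04%) passed the threshold in the hemisection libraries, 2 higher (0.0329%) and 61 lower (1.0%). Against the untraced libraries 0 genes passed (0.0%), with 241 at an unadjusted p under 0.05 and a smallest adjusted p of 0.163. The uninjured library itself differed from the untraced libraries in 6 genes (0.0988%), all higher, of which mt-Atp6, mt-Co3, mt-Nd2 and mt-Nd3 are mitochondrially encoded. These 3 comparisons share libraries, and their values are given side by side. Of the 61 lower genes, 59 stood higher in the uninjured library than in both untraced libraries, and 38 stood lower in both hemisection libraries than in both untraced libraries. The 61 were called on the same uninjured and hemisection values, and neither count was taken over all 6074 genes. Both counts are therefore description only and give no support from the second reference. DESeq2 called 5 of the 63 genes, and 0 against the untraced libraries, where 29 had an unadjusted p under 0.05. With each nucleus thinned to 2000 UMIs, 29 genes were called, 22 of them among the 63.

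Gal stood lower in the hemisection libraries than in the uninjured one, with 92.8 ± 79.0 CPM (SD, n = 2) against 555, a log2 fold change of -2.40 ± 0.53 (edgeR adjusted p = 0.0411). Against the untraced libraries, at 130 ± 114 CPM (SD, n = 2), the change was -0.43, and the groups overlapped. DESeq2 did not call Gal (adjusted p = 1.00). Pdyn had a change of -1.96 against the uninjured library (edgeR adjusted p = 0.157) and -0.57 against the untraced libraries, and passed the threshold without hemisection replicate 2 (-2.65, adjusted p = 0.00504), as it did without untraced replicate 1 or 2 (adjusted p = 0.00262 and 0.00292). Thinned to 2000 UMIs per nucleus, a Gal UMI was found in 36.7% of 158 uninjured nuclei, 14.0% of 57 in hemisection replicate 1 and 11.1% of 9 in replicate 2. The same share was 34.6% of 26 in untraced replicate 1 and 0 of 11 in replicate 2, where the interval reaches 28.5%. Thinning left out 12 nuclei of hemisection replicate 1 and 3 of untraced replicate 2. Fewer nuclei with the transcript and less of it per nucleus cannot be told apart in the summed counts.

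Of the GABA and glycine genes, 1 of 8 fell and 0 rose, where 1.0% of all tested genes fell and 0.0329% rose. Slc32a1 stood at 296 CPM in the uninjured library, 67.6 and 29.5 in the hemisection libraries, and 163 and 50.0 in the untraced libraries, a change of -2.44 against the uninjured library (edgeR adjusted p = 0.0235) and -1.09 against the untraced ones. Gad1 and Gad2 had changes of 0.30 and 0.48. Of the listed dorsal inhibitory factors, 0 of 7 tested passed, and Pax2, Pax8 and Nfib had changes of 0.61, 0.45 and -0.04 against the uninjured library. The 0 calls among 5 tested opioid genes included Pnoc at -1.42. Sstr2, the somatostatin receptor gene of dorsal inhibitory neurons, stood at 114 CPM in the uninjured library, 105 and 19.999 in the untraced ones and 6.76 and 29.5 after hemisection, a change of -3.25 that missed the threshold (edgeR adjusted p = 0.0559).

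Alcam, which encodes a cell adhesion protein of growing axons and immune cells, was 1 of the 2 genes that rose. It stood at 142 and 120.0 CPM in the untraced libraries, 143 in the uninjured library, and 465 and 826 in the hemisection libraries, which lay above all 3 uninjured values. The log2 fold change was 2.15 ± 0.45 against the uninjured library (edgeR adjusted p = 0.0308) and 2.33 ± 0.39 against the untraced libraries (adjusted p = 0.163). Its UMIs came from 43 of 69 and 6 of 9 hemisection nuclei, of which 33 of 275 and 36 of 112 lay in the top nucleus. In the other dorsal inhibitory nuclei Alcam stood at 546, 743 and 492 CPM in the same 3 uninjured libraries and at 843 and 458 after hemisection, and the change there was 0.44 (adjusted p = 0.801). The difference between the changes was 1.69 ± 0.52, with a p of 0.00207 and an adjusted p of 1.00 in edgeR's quasi-likelihood test. The call on Alcam was lost in DESeq2 (adjusted p = 1.00) and after thinning (1.48, adjusted p = 0.216).

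Iigp1, an interferon-induced GTPase gene, was the other. It had 0 UMIs in all untraced, uninjured and regenerating nuclei of the subtype, and 63 and 2 UMIs in the hemisection libraries, so that it was at least 44.2-fold higher than in the uninjured library, with a floor of 3 counts over the group. These UMIs came from 6 of 69 nuclei and 1 of 9. The bound rests on hemisection replicate 1, since the 2 UMIs of replicate 2 are under the floor and give no fold. Its call (edgeR adjusted p = 0.0235) was lost in DESeq2 (adjusted p = 1.00). Of 6 tested interferon response genes 1 rose, where 0.0329% of all tested genes rose. All 6 had positive changes against both references, with a median of 3.03 against the uninjured library and 2.64 against the untraced libraries. The medians over all 6074 genes were 0.02 and -0.01. The summed level of the 15 listed genes was 105, 120.0 and 121 CPM in the untraced and uninjured libraries and 471 and 701 after hemisection, and in all other neurons 77.9, 89.4, 102, 488 and 663. The summed level of 7 microglia markers in the same nuclei overlapped between the groups, at 79.9, 210.0, 162, 142 and 184 CPM. That of 10 antigen presentation genes was 32.7, 60.0, 116, 98.0 and 362 CPM, highest in hemisection replicate 2. Within that list Cd74, the invariant chain gene of antigen-presenting cells, had 0, 0, 1, 3 and 8 UMIs. Igkc, an antibody light chain gene of B-lineage cells that is on no list and was picked after its values were seen, had 0, 0, 1, 24 and 15 UMIs, from 18 of 69 and 7 of 9 hemisection nuclei (edgeR adjusted p = 0.0538 against the uninjured library). In all other neurons Igkc stood at 0.928, 0, 0.519, 44.5 and 145 CPM, against 0, 0, 0.673, 40.5 and 111 in the subtype. The part of transcripts from immune cells in the interferon values was not tested.

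Genes of cholesterol synthesis and uptake had negative changes against both references. Of 9 tested, 3 fell against the uninjured library, among them Msmo1, where 1.0% of all tested genes fell. All 9 had negative changes in both comparisons, with a median of -2.13 in each. Of all tested genes, 48.8% and 50.6% had negative changes. Msmo1, an enzyme of the late pathway, stood at 69.0 and 89.996 CPM in the untraced libraries, 82.8 in the uninjured library and 13.5 and 7.38 after hemisection. Its change was -2.80 against the uninjured library (edgeR adjusted p = 0.0294) and -2.62 against the untraced libraries (adjusted p = 0.540), and the hemisection libraries lay below all 3 uninjured values. The summed level of the 18 listed genes was 952, 860.0 and 1077 CPM in the untraced and uninjured libraries and 370.0 and 273 after hemisection. In all other neurons it was also lower after hemisection, at 245 and 267 CPM against 549, 516 and 868.

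Of the 61 lower genes 10 were mitochondrially encoded, and here the 2 references differed. Of 11 tested, these 10 fell against the uninjured library, where 1.0% of all tested genes fell. The median change of the 11 was -3.55, while it was -1.29 against the untraced libraries with 0 calls. The uninjured library exceeded the untraced libraries by a median of 2.09, with 4 calls, where 0.0988% of all tested genes were called. The summed level was 1311 and 950.0 CPM in the untraced libraries, 4890 in the uninjured library, and 441 and 561 after hemisection. In all other neurons the sums were 904 and 625, 4619, and 602 and 697 CPM in the same order. These transcripts are made in mitochondria, outside the nucleus. The summed level of 9 oligodendrocyte markers was 280 and 260.0 CPM, 796, and 71.0 and 88.5, and in all other neurons 240 and 266, 769, and 84.5 and 197. The part of these transcripts in the other changes was not tested.

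Some genes of the secretory pathway were also among the 61, which were 1.0% of all tested genes. Of 13 genes for the storage and processing of peptides 2 fell against the uninjured library, the granin genes Chgb and Scg2, whose proteins fill the vesicles that store peptides. Chgb stood at 378 and 199.99 CPM in the untraced libraries, 1241 in the uninjured library and 147 and 170 after hemisection, a change of -3.01 against the uninjured library (edgeR adjusted p = 0.00172) and -0.89 against the untraced libraries. Pcsk2, a protease that cuts peptide precursors, had changes of 0.12 and 0.55. Of 8 tested chaperones of the endoplasmic reticulum 4 fell (Calr, Hspa5, Hsp90b1 and Pdia6), with a median of -1.94 against the uninjured library and -0.75 against the untraced libraries. Other named lower genes were Ptgds, Clu, Atp6v0c, Tmed2, Thy1, Bcap31, Trf and Sec11c. Without hemisection replicate 1, 6 of the 14 named genes lost their call, among them Ptgds, Clu, Tmed2, Trf and Sec11c, with 80 genes called in all, 40 of them among the 63. Iigp1 did not pass the filter on low counts without that library and has no value there.

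**Figure D5:**
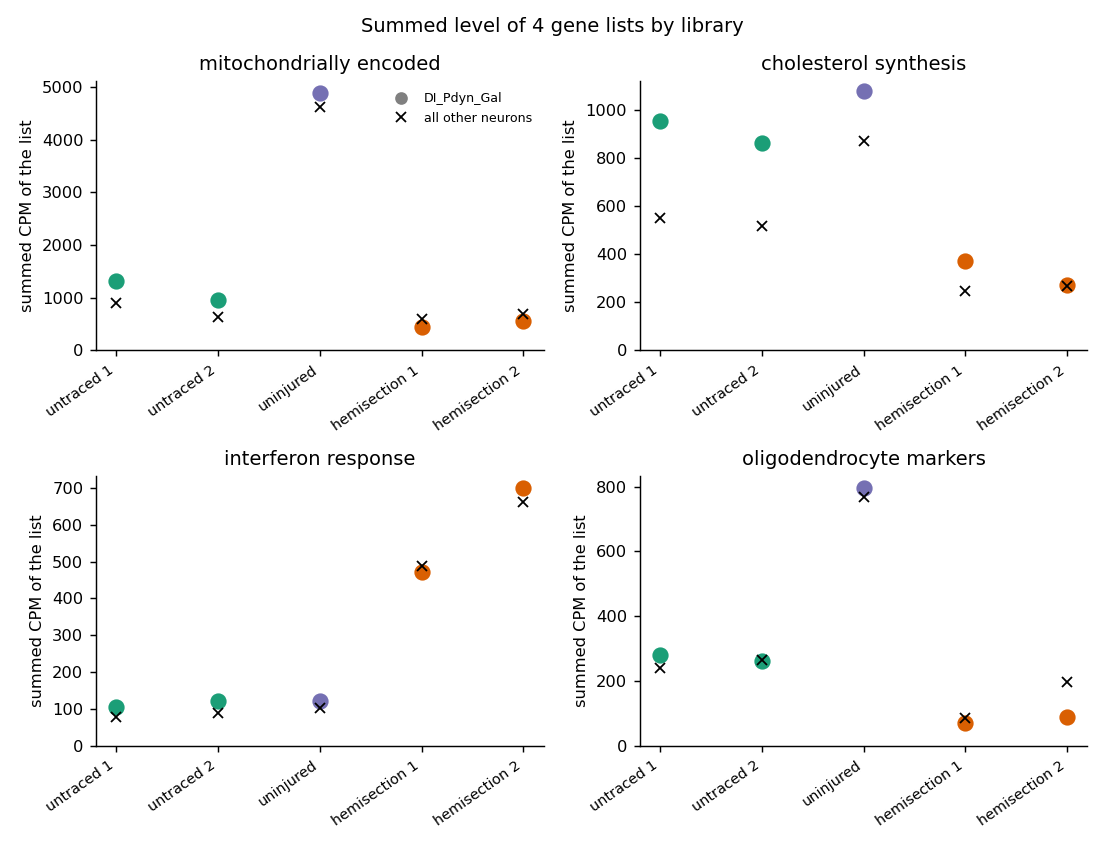
Summed CPM of 4 gene lists in DI_Pdyn_Gal nuclei (circles, coloured by group) and all other neurons (crosses) of the 5 deeper libraries. Mitochondrially encoded genes and oligodendrocyte markers peak in the uninjured library (4890 and 796 CPM), while cholesterol genes are lowest and interferon genes highest in the 2 hemisection libraries.

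The changes after hemisection were not shown to differ from those of the other dorsal inhibitory neurons. A test of the difference between the changes against the uninjured library, with both sets of nuclei in 1 edgeR quasi-likelihood fit, called 0 of 7050 genes (0.0%), with 94 at an unadjusted p under 0.05 and a smallest adjusted p of 0.678. DESeq2 was not run on this difference. Of the 63 genes called in the subtype, 61 were tested in the other dorsal inhibitory nuclei alone, and 59 of them were called there too. Over all genes, 181 of 7351 were called in those nuclei against the uninjured library, 8 higher and 173 lower. These nuclei come from the same libraries, so this count is no independent support. Against all other neurons 3 genes were called, and without hemisection replicate 1 there were 8.

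In the regenerating library, the 15 nuclei had 10342 UMIs together. Pdyn had 1 UMI and Gal 2 UMIs, and 1 nucleus had both. At least 1 of Gad1, Gad2 and Slc32a1 was found in 4 of the 15 nuclei, and Nfib stood at 484 CPM. In the traced libraries, the single nucleus of replicate 1 had 2 Pdyn UMIs, 1 Gal UMI and 1 Gad1 UMI of 25338, and that of replicate 2 had 0, 1 and 1 of 14664. No gene was tested between these groups, because the traced libraries have 1 nucleus each.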

How the data were processed

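The authors deposited UMI counts per gene and nucleus, not normalized, in 1 matrix of 19787 genes by 12447 nuclei, and an annotation with the library and subtype of each nucleus. The submitters' processing notes name Cell Ranger 4.0.0, Seurat 3 and the builds mm10 and GRCm38. How nuclei were filtered, doublets removed and subtypes named is not stated there. Nuclei were used as deposited, with no further filter and no doublet caller.

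Counts were summed per library over the nuclei of the subtype and tested with edgeR 4.0.16 in R 4.3.3 (TMM scaling, filterByExpr with a minimum count of 10 and a minimum total of 15, glmQLFit, glmQLFTest), with a coefficient per group. The 6 libraries left 2 residual degrees of freedom, and the uninjured and regenerating groups, with 1 library each, were assumed to vary like the others. The threshold was a Benjamini-Hochberg adjusted p of 0.05. Shares used this test on numbers of nuclei in all 8 libraries, with the neurons as offset. Alternatives included DESeq2 1.42.0, RLE scaling, other filters, thinning and leaving out libraries. The fit was tested on simulated data.

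The members, the gene lists and the comparisons were chosen with earlier results of these data known. The genes named by rule are the 25 highest and 15 lowest ratios to other neurons, the 12 highest and 8 lowest to other dorsal inhibitory nuclei, and up to 12 called genes in each direction whose groups do not overlap and whose mean reaches 20 CPM. Unnamed gene models and genes of mitochondrial or ribosomal proteins were not eligible. Other genes come from the lists. Some genes and 1 subtype are not reported here. Traced and untraced libraries share replicate numbers in their titles, and the labels do not say what a number marks. Coordinates are from GENCODE M21 (GRCm38). Intervals and floors cover counting error only.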

Additional observations from a re-analysis of the deposited data

How the results depend on the processing

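Among the shares, the log2 difference of traced against untraced libraries changed sign to 0.43 with all nuclei and 0.37 with dorsal inhibitory nuclei as the total. That of hemisection against uninjured changed sign to 0.50 and 0.12 under the same totals, to 0.00218 in DESeq2 and to 0.18 without hemisection replicate 1, and was -0.0920 without replicate 2. That of regenerating against traced changed to -0.00767 with dorsal inhibitory nuclei as the total. Of these 3 differences, 0 passed the threshold under the alternatives run. For hemisection against uninjured, 63 genes became 5 with DESeq2, 180 with no filter on low counts, 29 after thinning, and 76 to 247 with 1 replicate left out. For hemisection against untraced, 0 genes became 16 with no filter, 7 with at least 10 nuclei per library, 2 with at least 1 nucleus, 1 without the regenerating library, and 7 to 27 with 1 replicate left out. With the replicate number as a block this count was 18, and the difference in share of traced against untraced libraries was -2.10 (adjusted p = 0.129). The labels name no animal or batch behind these numbers, and deviations of same-numbered hemisection and untraced libraries correlated at 0.0877 across 6074 genes. The difference from other dorsal inhibitory nuclei gave 3 genes against all other neurons, and 1 to 8 without 1 hemisection replicate. For genes within the subtype, the setting with at least 10 nuclei per library and that without hemisection replicate 2 are the same fit. The cause of these shifts was not tested.

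Of 302 values of single genes under alternatives, 232 stayed on their side of the threshold, 42 passed it newly, 22 no longer passed and 6 changed sign, 0 of which had been called. All 6 are against the untraced libraries: Pdyn at 0.44 without hemisection replicate 1 (lowest of the leave-outs -1.32), Gal at 0.00273 with at least 10 nuclei per library, 0.00273 without hemisection replicate 2 and 1.15 without untraced replicate 1 (lowest -1.88), and Gad1 at -0.0467 without hemisection replicate 1 and -0.0347 without untraced replicate 2 (highest 0.61). The minimum of 10 nuclei per library left out only hemisection replicate 2, so that these settings are the same fit. Its values, 0.00273 for Gal among them, are counted under both settings. With 9 nuclei in hemisection replicate 2 and 14 in untraced replicate 2, few UMIs stand behind the low values of these libraries. The setting without the regenerating library was chosen after seeing the data.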
